A study of Homo sapiens with 4 samples.

Results

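The polypyrimidine tract binding protein (PTB) family was followed across a TARBP2 knockdown in MDA-LM2 shDicer cells, with 5 genes as members: PTBP1, PTBP2, PTBP3 and their nearest relatives HNRNPL and HNRNPLL. The family was selected on the measured fall of PTBP3 in knockdown on these same arrays, so every value of PTBP3 in that comparison is a description and carries no test. The other 4 genes were added as relatives, whatever their values. The probes tied to a member through an accession in the RefSeq table used here were taken, 7 of the 47323 probes on the array: 2 for PTBP3, 2 for PTBP2 and 1 each for PTBP1, HNRNPL and HNRNPLL. Of 46260 probes joined to an accession 27715 had a symbol in that table, so members may have further probes that were not named. All 5 genes are among the 11264 named genes that were tested.

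The knockdown cells were transfected with siTARBP2-1 or siTARBP2-2, which the design text calls independent of each other, and the control cells, described there as mock-transfected, received siControl-1 or siControl-2, 1 array each. MDA-LM2 is a subline of the breast cancer line MDA-MB-231 selected for lung metastasis. By their name the cells of both groups carry a hairpin against Dicer, controls included, and RNA was taken 48 h after transfection. The labels' protocols name Lipofectamine 2000 and biotin-labelled RNA on Illumina BeadChips. The siRNA sequences were not used here. No label names separate cultures, so p-values cover only the spread among these arrays, which may be technical.

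PTB proteins bind pyrimidine-rich stretches of RNA through RNA recognition motifs and mostly repress the use of nearby exons, and they also act on polyadenylation, transport, translation and stability of messenger RNA. PTBP1 is the widely expressed member, and PTBP2 is best known from neurons. PTBP1 keeps PTBP2 low in other cells by skipping a PTBP2 exon, which marks the transcript for nonsense-mediated decay, and members of the family can replace each other in part. TARBP2 is a double-stranded RNA binding partner of Dicer that also binds structured elements in messenger RNA.

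On each array 39.1% to 40.8% of probes were detected, at a detection p under 0.01, and the median signal lay between 68.1 and 71.0. In log2 of the normalized signal, the scale of all levels below, the brightest TARBP2 probe was at 6.11 and 5.79 in knockdown, against 9.27 and 9.25 in controls. Its log2 fold change of -3.31 checks the headings of the arrays. Of markers set for this line, VIM read 14.6 to 14.7 and CD44 13.7 to 13.8 over the 4 arrays, while FN1 did not pass the detection filter. ESR1, PGR and all 3 blood markers did not pass it either. ERBB2, set like them as low or absent, read 9.29 to 9.63 over the 4 arrays, and EPCAM had no joined probe. EGFR rose by 0.77 on its brightest probe, KRT8 rose by 0.70 and ERBB2 fell by 0.27 on the log2 scale. The other detected EGFR probe gave 0.34 and was not called in the fit over all detected probes (limma adjusted p = 0.0635). KRT18 did not pass the test. Of 2 endothelial markers VWF was not detected and PECAM1 did not pass the test. Of 2 fibroblast markers DCN was not detected, and LUM, dim on all arrays, read 6.21 and 6.44 in knockdown, against 5.85 and 5.92 in controls (limma adjusted p = 0.0270). The part of these markers in the results below was not tested. The number of arrays limits the precision.

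PTBP3, first described under the name ROD1 as a gene that regulates differentiation when expressed in fission yeast, was the member with the large change. Its gene spans chr9:112217715-112379882 in GRCh38.p14, and both of its probes stand for NM_005156. Probe 1 had signals of 895.6 and 928.8 in knockdown with siTARBP2-1 and siTARBP2-2, against 3197 and 3134.4 with siControl-1 and siControl-2. Probe 2 had 924.0 and 941.9 in knockdown, against 3182.3 and 3172.2 in the controls. Both knockdown arrays lay far below both control arrays on either probe, which describes a gene picked for its fall. The groups did not overlap, which after normalization held for 67.0% of all genes. All these PTBP3 signals had a detection p of 0, so the knockdown values are well above background.

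After normalization probe 1 averaged 9.73 ± 0.0016 in knockdown and 11.62 ± 0.0047 in controls (SD, n = 2 each). Probe 2 averaged 9.76 ± 0.019 in knockdown and 11.63 ± 0.023 in controls (SD, n = 2 each). The log2 fold changes were -1.89 and -1.86, which leaves 26.9% and 27.5% of the control level. Probes of 1 gene are read from the same RNA and are not replicates. Among the 11264 genes, each read from its brightest probe, PTBP3 had the third largest fall, rank 3 counted from TARBP2 downward. The log2 fold change lay between -1.88 and -1.77 over 15 alternative ways of processing, leaving aside the series matrix with its groups as labelled, which turns every sign. In bulk RNA, fewer cells with the transcript and less of it per cell cannot be told apart.

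**Figure D1:**
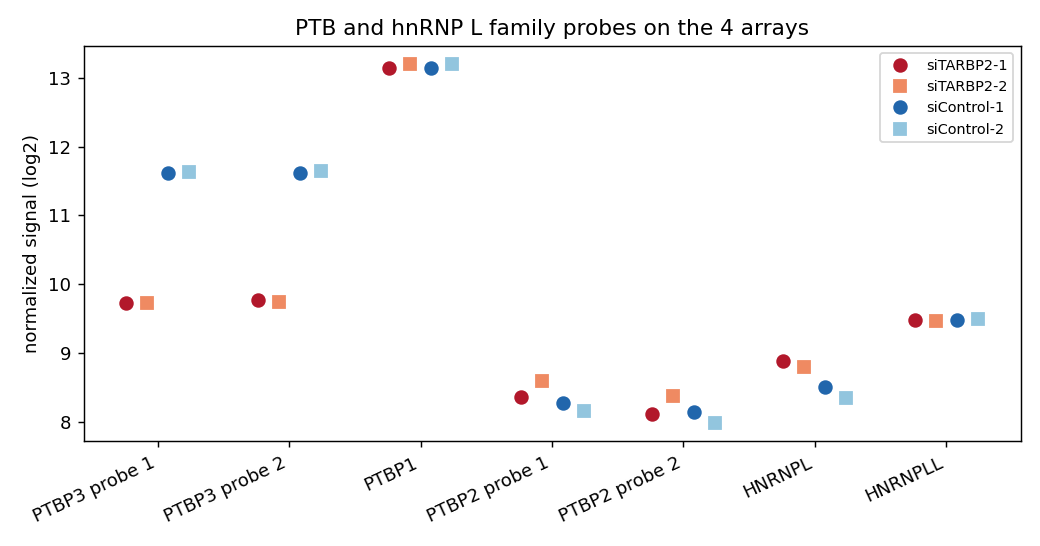
Normalized signal (log2, vertical axis) of the 7 family probes, with 1 point for each of the 4 arrays, knockdown in red and orange and control in blue. The PTBP3 probes read 9.73 to 9.78 in knockdown and 11.61 to 11.64 in controls, the points of PTBP1 and HNRNPLL lie together, and both HNRNPL knockdown points lie above both control points. Heights of different probes are not comparable as transcript amounts.

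Both siRNAs gave nearly the same PTBP3 level. Against the control mean, probe 2 differed by -1.85 with siTARBP2-1 and by -1.88 with siTARBP2-2, and these 2 values share the control arrays. Compared directly, siTARBP2-1 minus siTARBP2-2 was 0.03 on the log2 scale, and on probe 1 the same difference was 0.0023. PTBP3 was picked for its fall on these same knockdown arrays. The likeness of the siRNAs may thus be partly built in, and it carries no test. Each siRNA has 1 array, so any interval between the siRNAs borrows the spread of both controls and assumes that all arrays vary alike. Over all genes 2 of 11264 passed between the siRNAs (0.0178%). TARBP2 itself was 0.32 higher with siTARBP2-1 than with siTARBP2-2, with a 95% interval from 0.04 to 0.60, and this did not pass (limma adjusted p = 0.838).

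PTBP1 passed no test in either direction on the 1 probe joined to it, and further probes for it may be unnamed. It is the founding member, also called hnRNP I, a repressor of many tissue-specific exons, and its gene lies at chr19:797452-812312. Its probe for NM_002819 had signals of 8972.1 and 9698.9 in knockdown, against 9188.4 and 9252.1 in controls. The lower of the knockdown signals lies below both controls and the higher lies above them, so the groups overlap. After normalization the arrays read 13.14 and 13.20 in knockdown, against 13.15 and 13.20 in controls. The log2 fold change was 0.00 with a standard error of 0.05 and a 95% interval from -0.10 to 0.10 (limma adjusted p = 1.00). This was the smallest absolute change of the 11264 genes, rank 1 from the bottom, and over 15 alternatives the value stayed between -0.03 and 0.03.

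The windows around the annotated start sites of 3 members are shown because these genes stand for the fall, the absence of a called change and the rise described here. The windows are RefSeq's, build GRCh38.p14, with 250 bases before and 50 after the start, 5′ to 3′ on the gene's own strand. They lie at chr9:112332977-112333276 (minus strand, inside the annotated span of PTBP3, which begins farther upstream), chr19:797202-797501 (plus strand, 1 of 2 PTBP1 windows) and chr19:38852298-38852597 (minus strand, 1 of 2 HNRNPL windows). Capitals mark matches on either strand to CCAAT, the CCAAT box, and to GGGCGG, the GC box.
PTBP3 promoter: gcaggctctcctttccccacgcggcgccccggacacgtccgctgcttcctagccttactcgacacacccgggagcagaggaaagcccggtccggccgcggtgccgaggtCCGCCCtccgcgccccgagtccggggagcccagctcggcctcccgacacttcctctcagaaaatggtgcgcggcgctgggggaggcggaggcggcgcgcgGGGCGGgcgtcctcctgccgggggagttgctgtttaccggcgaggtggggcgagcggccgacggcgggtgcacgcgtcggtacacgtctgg
PTBP1 promoter: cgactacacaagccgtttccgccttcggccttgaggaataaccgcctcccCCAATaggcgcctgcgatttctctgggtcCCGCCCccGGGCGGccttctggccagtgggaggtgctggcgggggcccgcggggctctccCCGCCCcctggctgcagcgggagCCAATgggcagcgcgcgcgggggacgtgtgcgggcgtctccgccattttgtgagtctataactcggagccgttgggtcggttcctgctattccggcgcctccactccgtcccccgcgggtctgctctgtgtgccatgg
HNRNPL promoter: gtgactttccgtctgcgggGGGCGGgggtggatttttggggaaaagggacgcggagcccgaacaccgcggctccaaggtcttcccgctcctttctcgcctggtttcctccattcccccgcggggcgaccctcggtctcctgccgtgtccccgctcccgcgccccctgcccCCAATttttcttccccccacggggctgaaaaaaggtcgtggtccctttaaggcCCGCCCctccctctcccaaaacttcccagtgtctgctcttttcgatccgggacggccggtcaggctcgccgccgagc
The PTBP3 window holds 0 matches to CCAAT and 2 to GGGCGG, that of PTBP1 holds 2 and 3, and that of HNRNPL holds 1 and 2, and no marked matches overlap. The other PTBP1 window, at chr19:797734-798033, holds 0 and 2, as many as that of PTBP3, and the other HNRNPL window, at chr19:38849937-38850236, holds 3 and 3, so the counts do not set the genes apart. CCAAT is held by 34.6% and GGGCGG by 45.0% of all 35116 windows from RefSeq. The windows are 74.0%, 69.3% and 66.3% G or C for PTBP3, PTBP1 and HNRNPL, against a median of 58.7% over all windows. The arrays measured transcript levels, so nothing here bears on activity at these starts, and a match to these letters is not a binding site.

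PTBP2, the neuronal paralog at chr1:96721784-96823739, was detected on all 4 arrays by both of its probes for NM_021190. Probe 1 had signals of 372.5 and 447.5 in knockdown, against 345.6 and 320.6 in controls. Probe 2 had 322.1 and 390.0 in knockdown, against 321.3 and 288.6 in controls. The array of siTARBP2-2 was the highest on both probes, and that of siTARBP2-1 lay just above the higher control. After normalization probe 1 read 8.36 and 8.60 in knockdown, against 8.27 and 8.16 in controls, a rise of 0.27 (SE 0.09, limma adjusted p = 0.0334). Probe 2 read 8.12 and 8.38 in knockdown, against 8.15 and 7.98 in controls, so here the groups overlap. Its log2 fold change was 0.19 with a 95% interval from -0.03 to 0.40, and in the fit over all 19295 detected probes, of which 28.0% were called, it did not pass (limma adjusted p = 0.182).

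The PTBP2 call was thus that of its brighter probe, and it was lost with the mean of both probes (0.23, limma adjusted p = 0.0750), with no detection filter (0.101) and without a variance trend (0.106). It was also lost without siTARBP2-2, where the log2 fold change was 0.15 (0.302), and without siControl-2, where it was 0.21 (0.185). Each siRNA's own difference from the controls was 0.15 for siTARBP2-1 (limma adjusted p = 0.295) and 0.38 for siTARBP2-2 (0.0133), in comparisons that called 24.8% and 27.2% of all genes. The difference between the siRNAs, -0.24 with an interval from -0.48 to 0.01, did not pass (limma adjusted p = 0.859).

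HNRNPL rose. It encodes an RNA-binding protein that prefers CA-rich elements and both represses and activates exons, and its gene lies at chr19:38836370-38852347. Its probe for NM_001005335 had signals of 518.8 and 513.1 in knockdown, against 400.4 and 360.9 in controls. Both knockdown arrays were above both controls, and the groups did not overlap for 67.0% of all genes after normalization. The normalized HNRNPL probe averaged 8.84 ± 0.056 in knockdown and 8.43 ± 0.10 in controls (SD, n = 2 each). The log2 fold change was 0.42 (SE 0.08, limma adjusted p = 1.00e-03), or 1.34-fold higher. Each siRNA's own difference from the controls was 0.46 for siTARBP2-1 (limma adjusted p = 0.00513) and 0.38 for siTARBP2-2 (0.0131), and the call held under all 15 alternatives, with values between 0.34 and 0.49. The probe was joined to 1 of 15 RefSeq transcripts of the gene and may read others, and no other probe was joined to HNRNPL.

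HNRNPLL, a close relative of HNRNPL known for its part in the switch of CD45 splicing in activated lymphocytes, lies at chr2:38561969-38602928. Its probe for NM_138394 had signals of 753.3 and 779.6 in knockdown, against 750.6 and 741.1 in controls. After normalization the arrays read 9.48 and 9.46 in knockdown, against 9.48 and 9.49 in controls. The log2 fold change was -0.01 with a standard error of 0.06 and a 95% interval from -0.15 to 0.13 (limma adjusted p = 0.906). Its direction turned with median scaling, at 0.04. With CD45 itself, PTPRC, neither of its 2 probes passed the detection filter.

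**Figure D2:**
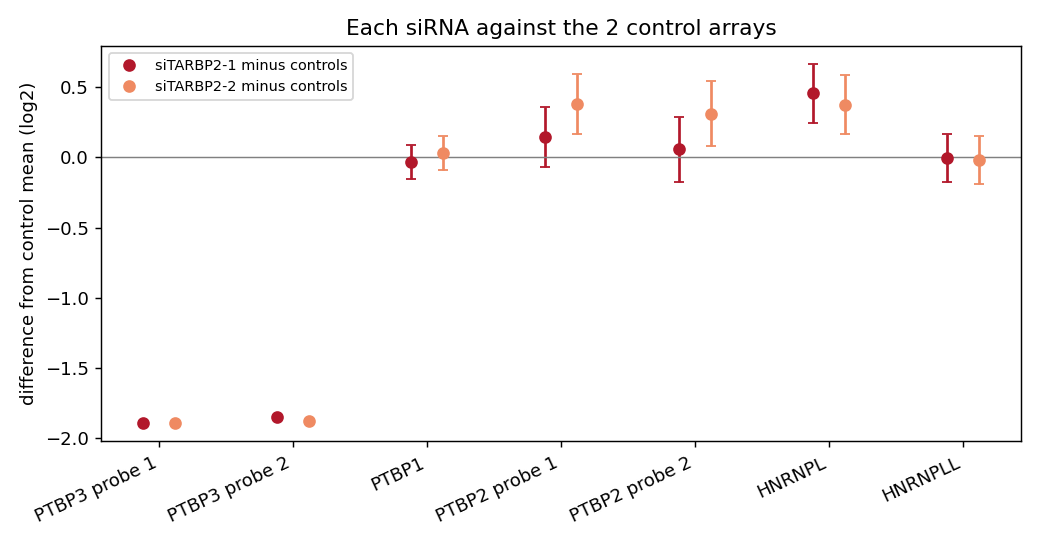
Difference of each siRNA array from the mean of the 2 control arrays (log2, vertical axis) for the 7 family probes, with 95% limma intervals except for PTBP3, which carries no test. PTBP3 lies at -1.85 to -1.90 with either siRNA, HNRNPL lies above 0 with both, and the intervals of PTBP1 and HNRNPLL include 0 with both.

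Of the 4 relatives 2 were called higher, PTBP2 and HNRNPL, and 0 were called lower, at a limma adjusted p under 0.05. Over all genes 17.1% were called higher and 17.2% lower, 34.2% in either direction, so with 4 genes the share says little about the family. Under median scaling of the raw signal the calls over all genes were 2111 higher and 1056 lower, against 1921 and 1932 here, so 66.7% of calls were higher there and 49.9% here. The groups did not overlap for 67.0% of all genes. On the probe used they did not overlap for PTBP2 and HNRNPL and overlapped for PTBP1 and HNRNPLL. PTBP3 was picked for its fall, so it is left out of this comparison. With 2 against 2 arrays the smallest p an exact permutation test can give is 0.333, which HNRNPL and probe 1 of PTBP2 reach, so the calls depend on limma's moderated variance. The absolute change was larger than that of 87.6% of genes for HNRNPL and of 71.9% for PTBP2, and larger than that of 4.43% for HNRNPLL.

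The authors' deposited table gives a log fold change of -1.83 for NM_005156 of PTBP3, 0.32 for NM_001005335 of HNRNPL, 0.16 for NM_021190 of PTBP2, -0.01 for NM_138394 of HNRNPLL and 0.00045 for NM_002819 of PTBP1. Of these 5 accessions only that of HNRNPL is marked there as up-regulated. The mark is carried by 1240 of all 39747 accessions listed there. It is given for rises only, so the fall of PTBP3 could not be marked. The deposited log fold changes come from the same arrays on a scale that compresses low signals. The probes were joined to accessions by these fold changes, so they are no separate support. In the series matrix the groups stand crosswise to these headings: there the PTBP3 probes read 3003 to 3071 in the columns of the knockdown samples and 823 to 850 in those of the control samples.

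Among the genes with array profiles most like that of PTBP3 were ERLIN2, HSPA13, SGCB and SACM1L. Likeness was the root mean square difference over the 4 arrays of log2 values centred on each gene's control mean. The distances were 0.086 for ERLIN2, which takes part in degradation at the endoplasmic reticulum, and 0.101 for HSPA13, a microsomal relative of HSP70. They were 0.275 for SGCB, beta-sarcoglycan, and 0.351 for SACM1L, a phosphoinositide phosphatase. ERLIN2 read 7.52 and 7.36 in knockdown, against 9.25 and 9.18 in controls. HSPA13 read 7.68 and 7.49 in knockdown, against 9.54 and 9.60 in controls. With 4 arrays in 2 groups, likeness here is mostly likeness in the size of the fall. The log2 fold changes were -1.77, -1.98, -1.48 and -1.37 in the order of the names. With the mean of its probes ERLIN2 gave -1.10, so its place beside PTBP3 rests on its brightest probe.

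**Figure D3:**
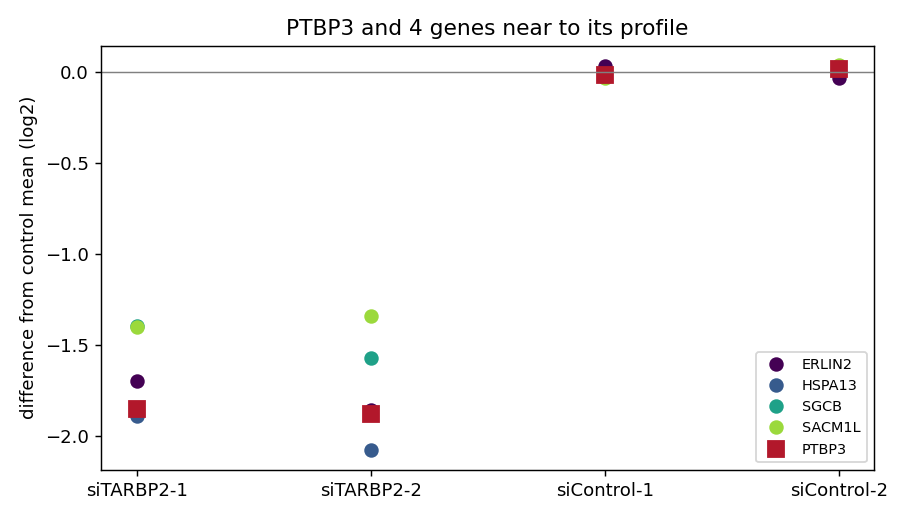
Difference from each gene's own control mean (log2, vertical axis) on the 4 arrays for PTBP3 (squares) and 4 genes near to its profile (circles). On the knockdown arrays PTBP3 lies at -1.85 and -1.88, between HSPA13 and the other 3 genes.

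Of 41 listed splicing regulators and partners of the PTB proteins 35 were measured, and 6 rose, 4 fell and 25 did not pass. Over all genes 17.1% were called higher and 17.2% lower, and the list's shares lie close to the first and below the second, so its calls are no result about these regulators as a group. The median log2 fold change of the list was -0.04, against -0.0087 over all genes. RBFOX2, a regulator that binds UGCAUG elements, read 9.48 and 9.15 in knockdown, against 8.56 and 8.47 in controls, a rise of 0.80 (SE 0.09, limma adjusted p = 2.57e-05). HNRNPA1, an exon repressor with many pseudogenes that the probe may not tell apart, rose by 0.61 (7.71e-05) on its brighter probe. That probe read 8.16 and 8.20 in knockdown, against 7.60 and 7.54 in controls. The other HNRNPA1 probe for the same accession gave 0.11 (0.510), and the mean of both gave 0.36 (0.00707). MBNL1, the muscleblind protein, rose by 0.24 (0.00778) on its brighter probe, and its probe for NM_207295 gave 0.09 (0.356).

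SRSF1, the SR protein that promotes exon inclusion, read 11.90 and 11.99 in knockdown, against 12.26 and 12.42 in controls, and fell by 0.39 on the log2 scale (limma adjusted p = 2.15e-04). HNRNPC, which binds uridine tracts, gave -0.22 (0.0152), while its probe for NM_001077442 gave 0.00053 (0.996). HNRNPA2B1 gave -0.27 (0.0158). The counts depend on single arrays: without siTARBP2-2 they were 2 higher and 3 lower, without siControl-2 they were 3 and 2, and without siTARBP2-1 5 and 2. With median scaling 6 were higher and 1 lower and the median turned to 0.01, and without a variance trend 5 were higher and 1 lower. The calls of HNRNPC and HNRNPA2B1 were lost with median scaling (limma adjusted p = 0.121 and 0.0864) and without a variance trend (0.0935 and 0.0841). That of HNRNPC was also lost with the mean of its probes (0.141), without siTARBP2-2 (0.0902) and without siControl-2 (0.175), and that of HNRNPA2B1 without siTARBP2-1 (0.156) and without siControl-1 (0.0870). MBNL1 missed the threshold without siTARBP2-2 (0.0548).

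RAVER1 and MATR3 are known partners of PTBP1 in exon repression. RAVER1 read 8.68 and 8.69 in knockdown, against 8.48 and 8.40 in controls, and rose by 0.25 (limma adjusted p = 0.0190). MATR3 gave -0.02 (0.735). UPF1, the helicase of nonsense-mediated decay, rose by 0.26 (0.00944). These 3 genes were singled out after their values had been seen. The epithelial splicing regulators ESRP1 and ESRP2 and the neuronal SRRM4 and NOVA1 did not pass the detection filter, nor did MBNL3.

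**Figure D4:**
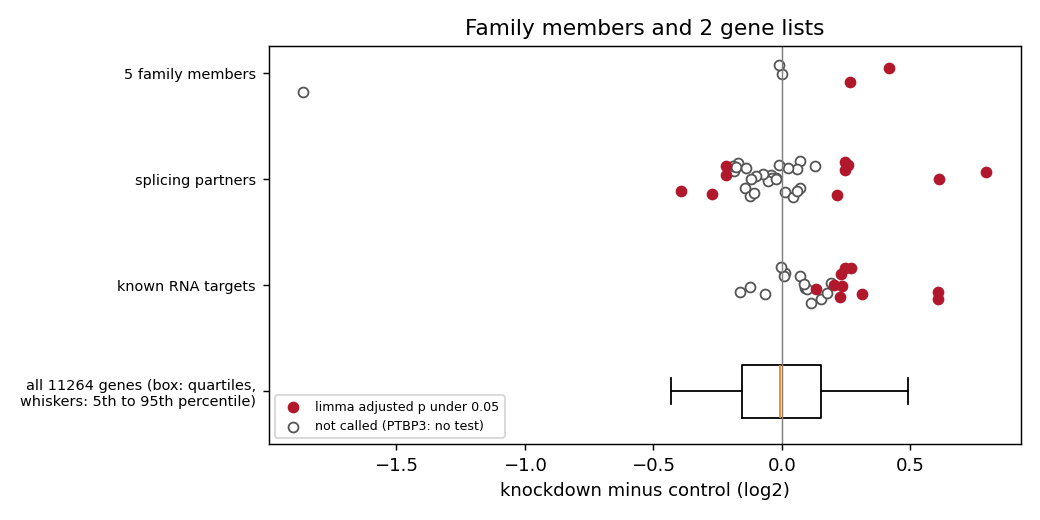
Log2 fold change of knockdown against control (horizontal axis) for the 5 family members, 35 measured splicing partners and 24 measured RNA targets, with all 11264 genes as a box plot. Filled points passed the limma threshold. PTBP3, at -1.86, lies far to the left of the lists, partner genes lie on both sides of 0, and all 10 filled target genes lie above 0.

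Among transcripts known as splicing or RNA targets of PTB or hnRNP L proteins, the called genes were all higher in knockdown. Of 30 listed genes 24 were measured, and 10 rose, 0 fell and 14 did not pass, with a median log2 fold change of 0.14 against -0.0087 over all genes, of which 17.1% were called higher. The list was chosen with earlier results of these data known, so its counts and median are no result about these targets as a group. MEF2D, a transcription factor of muscle and neurons, read 9.32 and 9.19 in knockdown, against 8.66 and 8.64 in controls, a rise of 0.61 (limma adjusted p = 2.68e-05). TJP1, which encodes the tight junction protein ZO-1, read 10.62 and 10.86 in knockdown, against 10.32 and 9.94 in controls, a rise of 0.61 (5.22e-04). CASP2, the apoptotic caspase with a PTB-regulated exon, rose by 0.31 (9.27e-04). The count of higher genes was 5 without a variance trend and 6 without siTARBP2-2 or without siControl-2. The median stayed between 0.09 and 0.16 over 15 alternatives, and without siControl-1 the counts were 9 higher and 1 lower.

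The deposited tables hold no exon-level values. Detected probes joined to at least 2 RefSeq accessions were found for 12 of the target genes, 30 probes in all. No probe sequence was used, so a probe joined to 1 accession may read other transcripts of its gene too. The values are thus not levels of single transcripts. Of the 30 probes 11 were called higher and 1 lower in the fit over all detected probes, of which 28.0% were called in either direction. In 0 genes were probes called in opposite directions. Among 31 such probes of 12 listed splicing regulators 2 were called higher and 3 lower, also with 0 genes called both ways. The share of such genes over all genes was not counted, nor was the share of all detected probes called higher. The counts are thus no result about the target genes as a group. All probes of CASP2, RTN4 and TJP1 were called higher, and how often this happens over all genes was not counted either. The TJP1 probes gave 0.61 and 0.81, and those of RTN4, which encodes Nogo, gave 0.23 and 0.30. For PKM, the pyruvate kinase whose exon choice PTBP1 controls, the probes for NM_182471 and NM_002654 gave 0.20 (limma adjusted p = 0.0140) and 0.20 (0.0390), and that for NM_182470 gave 0.06 (0.513). The tropomyosin gene TPM1 had called probes for NM_001018020 at 0.32 and for NM_001018004 at 0.27, while both dim probes for NM_001018008 gave -0.11 and 0.20 and did not pass. The CD44 probe for NM_001001392 gave 0.30 and was called, those for NM_001001391 and NM_000610 gave 0.13 and 0.18 and were not, though that for NM_001001391 was called in the fit of 1 probe per gene. Whether probes of 1 gene differ from each other was not tested.

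**Figure D5:**
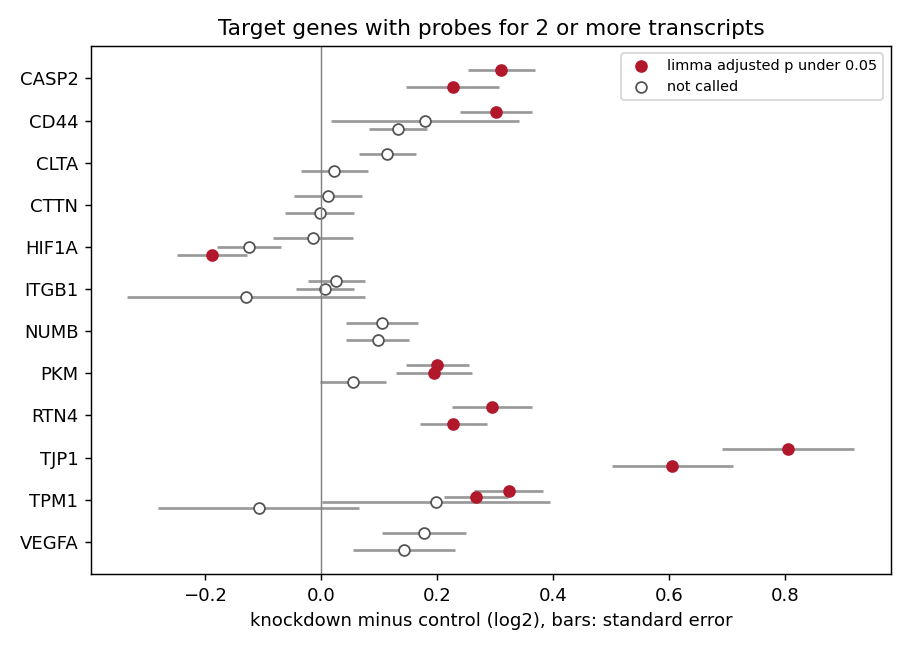
Log2 fold change of knockdown against control (horizontal axis, bars are standard errors) for each detected probe of the 12 target genes with probes for 2 or more accessions. All called probes lie above 0 except 1 of HIF1A at -0.19, and the probes of TJP1 reach the highest values, 0.61 and 0.81.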

How the data were processed

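For 47323 probes the authors deposited non-normalized signal intensity from 4 arrays, and, per the file headers, a p-value of detection for each. A further deposited table lists 1 log fold change for each accession, read here as log2 though its scale is not stated, with a flag for those up-regulated. The series matrix holds intensities normalized by an unstated method. The submitters' processing notes name lumi, without a version.

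No probe annotation was used. Deposited fold changes were recovered from the series matrix through an inverse hyperbolic sine with 3 fitted constants, as group mean differences, so probes were joined to accessions by value within 1e-09. Accessions with several probes were searched among groups of probes close together in the file. This joined 39301 of 39747 accessions, and when the values were shifted by 1e-06 only 18 single and 16 group matches arose. Symbols came from the RefSeq table (GRCh38.p14) for 27715 probes. Each series matrix column matched an array of the other group, and the join found 33118 single probes with the groups crossed and 13 with the groups as labelled. The headings of the non-normalized table were kept.

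Signals were background-corrected and quantile-normalized by limma 3.58.1 (neqc, R 4.3.3, offset 16, negative controls inferred from the detection p) to log2 values. A probe was kept where its detection p was below 0.01 on 2 or more arrays (19295 probes), and a gene was read from its brightest probe (11264 genes). Two-sided tests of knockdown against control used limma's lmFit and trended eBayes. P-values were adjusted over all genes (Benjamini-Hochberg) and called under 0.05. Single siRNAs were compared in a fit with 3 groups. The fit was run on simulated data with normal noise drawn from its own variances, which checks the code and not how these arrays vary. The members and gene lists were chosen with earlier results of these data known. Named are the members, TARBP2, the 3 called genes of smallest p per direction in each list, and the 5 profiles nearest to PTBP3, of which 1 is not reported here. Genes outside this rule are said to be so, and markers, genes without detection and genes with probes joined to several accessions are named as groups. The replicate numbers were not used to pair the arrays in the main fit. Between the groups, the deviations of replicate 1 from the group mean had a correlation of 0.00535. In knockdown these deviations also hold the difference between the siRNAs, so the value cannot decide whether the arrays were paired.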

Additional observations from a re-analysis of the deposited data

How the results depend on the processing

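The count of genes changed in knockdown stayed between 2619 and 3918 over 15 alternatives, against 3853, and leaving out 1 array gave 2619 to 3067. The replicate block, which pairs the arrays by replicate number, gave 3870 calls. It changed no call of the members, TARBP2, the list genes named by smallest p or the genes near PTBP3. The count of targets called higher went from 10 to 9 with it. For siTARBP2-1 against control the count was 1569 with median scaling and 594 without a variance trend, against 2790. For siTARBP2-2 it was 1924 with median scaling, 2037 with no detection filter and 795 without a variance trend, against 3063. Between the siRNAs limma called 15 genes with median scaling and 4 with cyclic loess, against 2, and 0 without a variance trend, averaging probes, requiring detection on all 4 arrays, or dropping the detection filter, while 653 had an unadjusted p under 0.05 in the fit reported. HNRNPLL was 0.038 with median scaling. Leaving out 1 array moved PTBP1 between -0.030 and 0.030. With the series matrix columns as labelled, the groups are exchanged by construction and every named gene turned: PTBP1 -4.33e-04, PTBP2 -0.23, PTBP3 1.85, HNRNPL -0.37, HNRNPLL 0.011, TARBP2 2.57, RBFOX2 -0.73, HNRNPA1 -0.50, MBNL1 -0.23, SRSF1 0.40, HNRNPC 0.23, HNRNPA2B1 0.26, MEF2D -0.56, TJP1 -0.59, CASP2 -0.32, ERLIN2 1.53, HSPA13 1.76, SGCB 1.28 and SACM1L 1.30. The cause of the other differences between settings was not tested. The 2 arrays a group limit the precision.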
